A study of Mus musculus with 6 samples.

Results

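The 51 genes described here encode the proteins that license replication origins and synthesise DNA, in cultured mouse tail tissue fibroblasts. They were taken from a list of names covering the origin recognition complex, the licensing factors, the MCM proteins, the factors that switch the helicase on, the replicative polymerases, the sliding clamp and its loader, single-strand binding and ligation factors, nucleotide synthesis enzymes and chromatin factors of the fork. All 51 were on the array, with 77 of its 56605 non-control probes, and all 51 entered the test among 23060 genes. Accessions without a gene symbol were counted as genes there.

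The cells came from C57BL/6 mice of genotype LH2F/F CAG-Cre, called LH2 cKO, in every group, controls included. LH2 is lysyl hydroxylase 2, a collagen-modifying enzyme encoded by Plod2, and the CAG promoter that drives the Cre is active in most cell types. Control medium held no tamoxifen. The no.1 and no.2 cells were given tamoxifen for 24 h, after which it was present in the medium of no.1 and absent from that of no.2, and every group had 2 arrays of Cy3-labelled total RNA. No group had tamoxifen with LH2 intact, so tamoxifen, the deletion and time in culture cannot be told apart against control. The age and number of the mice, and whether arrays within a group stem from different cultures, are not given in the sources used here. Every p-value therefore covers just the variation among these samples, and that variation may be technical. File names mark the controls as 0 h, with 24 h for replicate 1 and 48 h for replicate 2 of no.1 and of no.2, whereas the labels give 24 h for all 4.

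In each division cycle the origin recognition complex marks origins in G1, and Cdc6 and Cdt1 load the MCM2-7 helicase onto them, a step called licensing that geminin blocks once S phase has begun. The kinase Cdc7 with its partner Dbf4, and then Cdc45 and the GINS complex, turn the loaded ring into the moving helicase. Polymerase alpha with primase lays primers, polymerases epsilon and delta extend them, and the clamp PCNA, loaded by the RFC complex, holds polymerases on DNA. Many of these genes are transcribed under E2F control and are low in resting cells. In RNA of a whole culture, fewer cycling cells and less RNA per cell cannot be told apart.

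Each level below is the log2 signal of the gene's brightest probe minus the log2 of the array's 75th percentile, so a level of 0 equals that percentile and a difference of 1 is a doubling relative to it. The 75th percentile of the signal was 34.2 and 33.7 on the control arrays, 95.9 and 85.1 in no.1, with 55.1 and 56.9 in no.2. The share of probes well above background also differed by group, at 45.7% and 44.2% for control, 53.4% and 53.5% for no.1, with 48.4% and 48.6% for no.2. The number of arrays limits the precision. The control arrays lay closer to each other (robust SD of the difference 0.154) than the no.1 arrays (0.418) or the no.2 arrays (0.386), so counts with the control arrays averaged into 1 sample stand beside the main ones. Plod2, the targeted gene, had a processed signal of 42.1 and 34.9 for control, 31.8 and 17.1 for no.1, with 13.3 and 8.59 for no.2. Relative to the 75th percentile it fell by 2.13 on the log2 scale in no.1 (adjusted p = 0.00613) and by 2.57 for no.2 (adjusted p = 0.00768). The size depends on the scaling of arrays, which shifts all genes of an array alike. With the 75th percentile the median difference over all genes was -0.12 in no.1 and -0.10 in no.2. Relative to 7 spike-in probes it was 1.82 and 1.18, so on that scale the Plod2 falls are smaller, most of all in no.1. Plod2 has a single probe of unstated position relative to the deleted part, so these values do not check the deletion. All arrays shared 1 slide, with the controls in the first row of arrays and the other groups in the second, so position and group cannot be told apart. Of 12 fibroblast markers, 10 were well above background on both arrays of every group, Lum on none and Fap on 1 no.1 array. The leukocyte gene Ptprc, the macrophage gene Adgre1, the muscle genes Myod1 and Myog, the endothelial gene Cdh5, and Krt5 and Krt14 of keratinocytes were not well above background on any array. Of those lists, Krt10 (1 of 7 keratinocyte markers) and Acta1 (with Des, the 2 of 5 muscle markers above background in control) were above background on all 6 arrays. Of 5 endothelial markers, Pecam1 was so on 5 arrays, Kdr on both no.1 arrays and Tek on 1 no.2 array. Of the 10 fibroblast markers tested, 6 fell in no.1 and 5 in no.2, while Col1a1 (-0.13 and 0.25) and Vim (-0.026 and -0.087) did not pass. The summed level of the 12, relative to the 75th percentile, was 4984 and 5283 in control and 1973 to 2586 in the tamoxifen-treated groups. S100a4 made up 43.5% to 71.9% of it, and without S100a4 the sum was 1426 and 1485 in control and 885.3 to 1231 in the others. Of 6 leukocyte markers, Cd68, Csf1r, Cd3e and Itgam were above background on all 6 arrays. Itgam read 4.66 to 5.21 over the arrays, and Csf1r 3.33 and 3.24 in control and 0.58 to 1.86 in the others. The summed level of the 6 leukocyte markers was 46.5 to 49.5 in control and 28.2 to 36.2 in the others. The part of these levels in the results below was not tested.

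Most replication genes were higher in tamoxifen-treated cells than in control, and none was called lower with the main processing. Against control, 41 of 51 rose in no.1, and the median over the 51 log2 fold changes was 1.46. In no.2, 27 rose, with a median of 1.13. Calls here are those of limma with the Benjamini-Hochberg adjustment over all 23060 genes, at a threshold of 0.05. Over all genes 21.4% were called higher and 26.4% lower in no.1, with a median of -0.12, and 12.1% higher and 16.2% lower in no.2, with a median of -0.10. Both comparisons use the same control arrays.

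With the control arrays averaged, 29 replication genes rose in no.1, where 9.8% of all genes were called higher and 11.2% lower. In no.2 only Mcm6 and Fen1 then rose, where 2.5% of all genes were called higher and 2.9% lower. The no.2 calls therefore depend on counting the control arrays as 2 samples, while averaging them leaves the sizes of the differences unchanged. Without control replicate 1 the no.2 median of the replication genes was 1.14, and without control replicate 2 it was 1.09. The scaling of arrays also sets the calls over all genes. In no.1 they were 4940 higher and 6081 lower with the 75th percentile, 7564 and 3296 with the median, and 18973 and 422 relative to 7 spike-in probes. In no.2 they were 2790 higher and 3728 lower, 4840 and 2176, and 15031 and 534. The median over all genes was 1.82 in no.1 and 1.18 in no.2 relative to the spike-ins, and the replication genes stood above it by 1.58 in no.1 and 1.23 in no.2 with each of these 3 scalings, which shift all genes of an array alike. All 51 were called higher in both groups relative to the spike-ins.

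**Figure D1:**
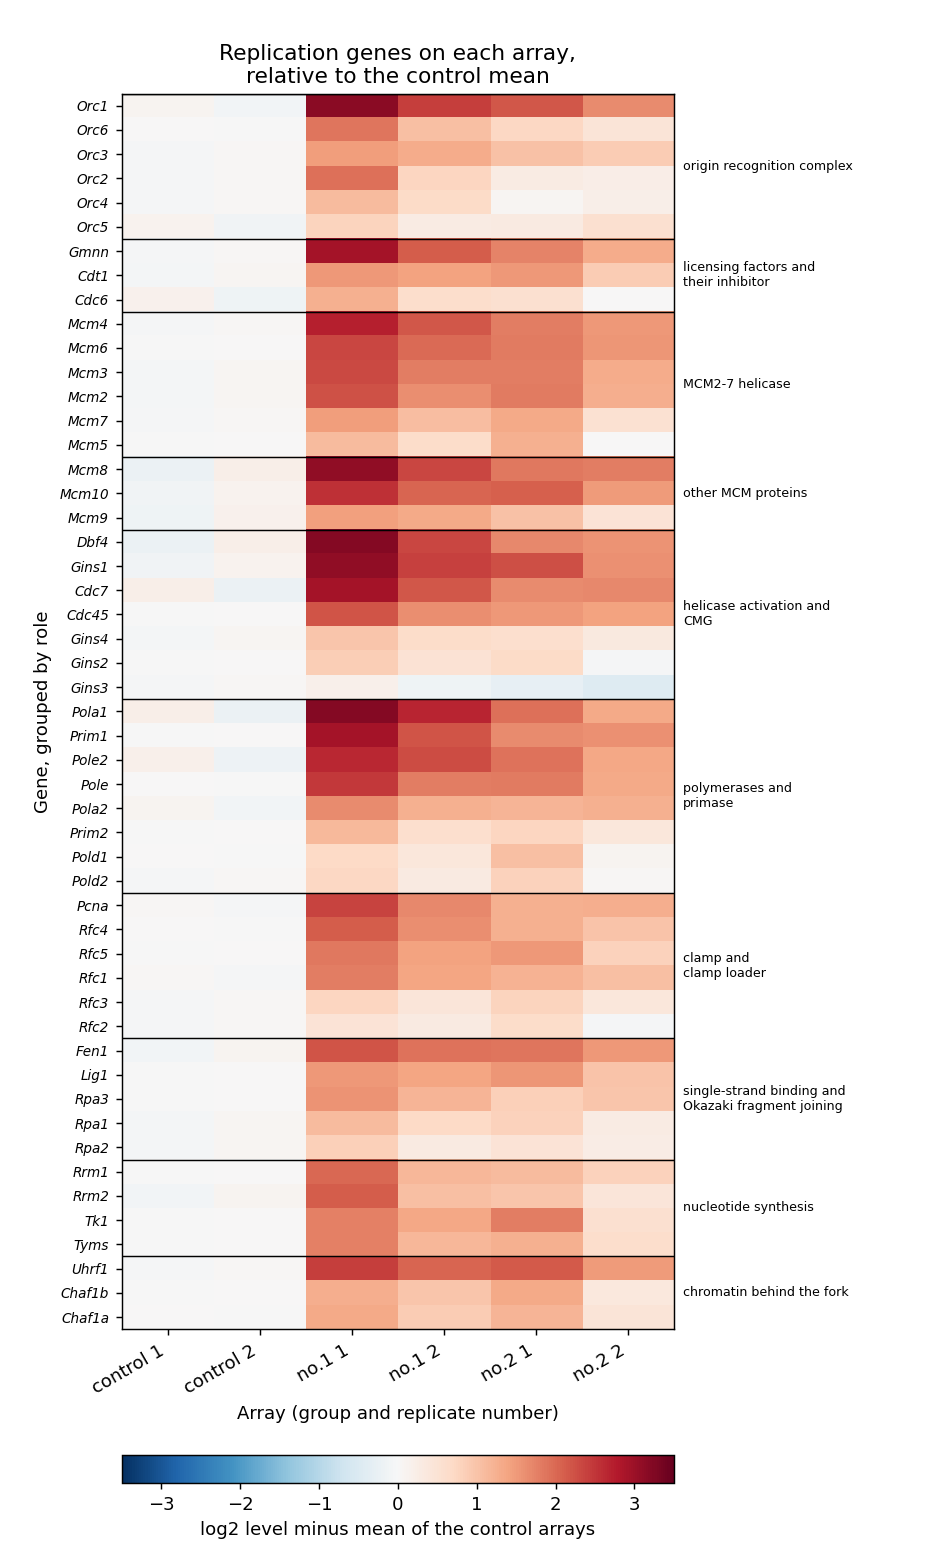
Level of each of the 51 replication genes on each of the 6 arrays (columns), as log2 level minus the mean of the control arrays (colour), with genes in rows grouped by role. The no.1 replicate 1 array was the highest for 42 genes, and Gins3 was the only gene whose no.2 arrays both lay below control.

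The control arrays held the low end for nearly every gene, and the no.1 replicate 1 array held the high end. A control array was the lowest of the 6 for 48 genes and the no.2 replicate 2 array for the other 3. The highest was no.1 replicate 1 for 42 genes and no.2 replicate 1 for 9. Both no.1 arrays lay above both control arrays for 50 genes, and both no.2 arrays did so for 46. The order of group means was no.1, then no.2, then control for 48 genes. None of these counts was made over all genes, so they describe the 51 genes alone, with no background beside them. The median level over the 51 genes was 2.23 and 2.25 for control, 3.97 and 3.45 for no.1, with 3.51 and 3.16 for no.2.

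**Figure D2:**
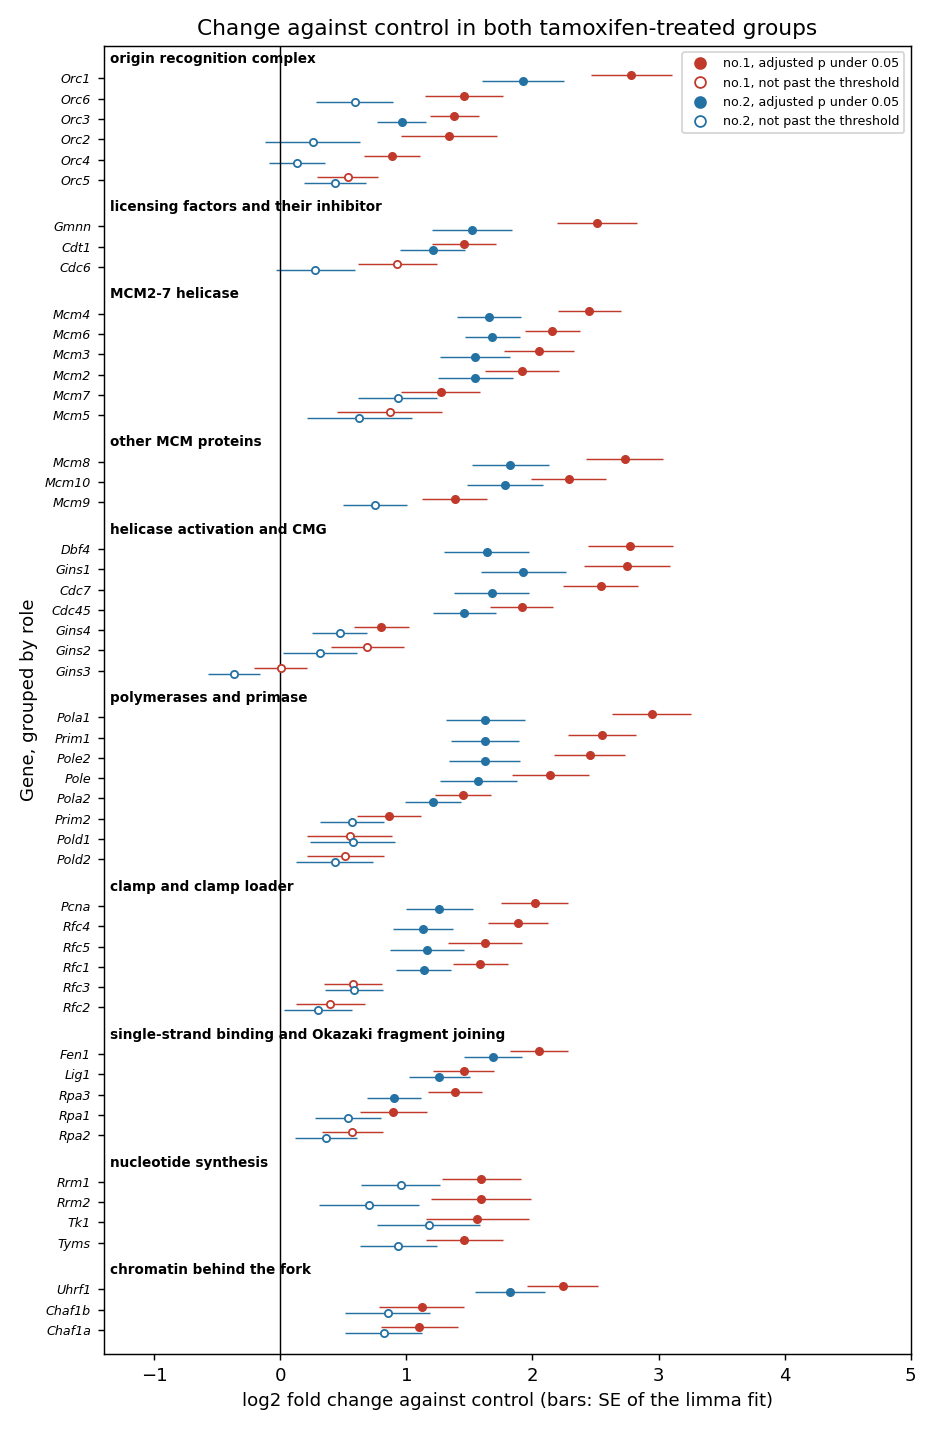
Log2 fold change against control for each replication gene in no.1 (red) and no.2 (blue), with the SE of the limma fit as bars and filled points for an adjusted p under 0.05. Among the helicase activation genes Gins3 stood at 0.0021 in no.1 while Dbf4 reached 2.77.

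Of the 6 origin recognition complex genes, Orc1 had the largest difference in both groups. Orc1, the ATPase subunit that is made periodically in the cell cycle, read -1.41 and -1.62 for control, 1.64 and 0.89 for no.1, with 0.66 and 0.15 for no.2. The groups did not overlap, and Orc1 rose by 2.78 in no.1 (SE 0.32, adjusted p = 0.00314) and by 1.92 in no.2 (adjusted p = 0.0128). Orc5, a core subunit, had the smallest difference of the 6 in no.1, at -2.55 and -2.77 for control, -1.89 and -2.36 for no.1, with -2.35 and -2.10 for no.2. Its arrays of no.1 and no.2 overlapped, and its log2 fold changes of 0.53 (adjusted p = 0.117) and 0.43 (adjusted p = 0.216) did not pass. With normexp background correction Orc5 was instead called lower in no.1 (-0.38, adjusted p = 0.0051). Orc6, Orc3, Orc2 and Orc4 rose in no.1, by 1.46, 1.38, 1.34 and 0.89. Of these, Orc3 rose in no.2 as well (0.96, adjusted p = 0.0191), whereas Orc2 stood at 0.26 and Orc4 at 0.13 there and did not pass. In all, 5 of 6 subunit genes rose in no.1 and 2 in no.2, and with the control arrays averaged 2 and 0 did.

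Of the genes for licensing and its inhibitor, Gmnn and Cdt1 rose in both groups. Gmnn, which encodes geminin, read 1.40 and 1.49 for control, 4.36 and 3.56 for no.1, with 3.18 and 2.74 for no.2. All 4 tamoxifen-treated arrays stood clear of control, and Gmnn rose by 2.52 in no.1 (SE 0.32, adjusted p = 0.00361) and by 1.52 in no.2 (adjusted p = 0.0212). Cdt1, the loading factor that geminin binds, rose by 1.46 (adjusted p = 0.00765) and 1.21 (adjusted p = 0.0221). Cdc6, the ATPase that works beside it, read 1.07 and 0.75 for control, 2.16 and 1.52 for no.1, with 1.46 and 0.91 for no.2. Its no.2 arrays overlapped control, and 0.93 in no.1 (adjusted p = 0.0522) and 0.28 for no.2 (adjusted p = 0.521) did not pass. The call for Cdc6 depends on the probe: its other probe, with the same accession, passed in both groups in a fit over probes, at 2.68 (adjusted p = 0.00417) and 1.97 (adjusted p = 0.0163). With the control arrays averaged, 2 of these 3 genes rose in no.1 and 0 in no.2.

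The MCM2-7 ring, the motor of the replication fork, was above control in the mean of all 6 subunit genes, by unequal amounts. Mcm4 read 2.08 and 2.18 for control, 4.86 and 4.31 for no.1, with 3.91 and 3.66 for no.2. The 3 groups did not overlap, with a rise of 2.45 in no.1 (SE 0.25, adjusted p = 0.0024) and 1.66 in no.2 (adjusted p = 0.0101). Mcm5 had the smallest difference, at 3.67 and 3.68 for control, 4.78 and 4.31 for no.1, with 4.91 and 3.69 for no.2. The no.2 replicate 2 array lay at the control level, and neither 0.87 in no.1 (adjusted p = 0.129) nor 0.63 for no.2 (adjusted p = 0.281) passed. Mcm6, Mcm3 and Mcm2 rose by 2.16, 2.05 and 1.92 in no.1 and by 1.68, 1.55 and 1.55 in no.2. Mcm7 rose by 1.27 in no.1 and stood at 0.93 in no.2 (adjusted p = 0.0704). In all, 5 of 6 rose in no.1 and 4 in no.2, against 4 and 1 with the control arrays averaged. The other Mcm7 probe passed in no.2 (0.88, adjusted p = 0.0347).

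All 3 MCM genes outside the ring rose in no.1 and 2 of them in no.2, or 3 and 0 with the control arrays averaged. Mcm8, which forms a helicase with Mcm9 that works in homologous recombination, read -2.31 and -1.92 for control, 1.00 and 0.23 for no.1, with -0.27 and -0.31 for no.2. It rose by 2.73 in no.1 (SE 0.31, adjusted p = 0.0029) and by 1.82 in no.2 (adjusted p = 0.0127), with no overlap between the groups. Mcm9 was not well above background on either control array (-2.99 and -2.67) and was so on both no.1 arrays (-1.39 and -1.50) and both no.2 arrays (-1.81 and -2.35). Its brightest probe gives a bound with the main processing: it was at least 2.55-fold higher in no.1 (adjusted p = 0.00872). For no.2 the bound was at least 1.64-fold higher, and the difference did not pass (adjusted p = 0.0728). For such a probe the bright group's mean is set against the lowest signal that counts as well above background on each dim array, or the probe's own where that is higher. With normexp background correction the Mcm9 difference in no.1 turned to -0.17. The other Mcm9 probe stood at 0.35 in no.1 and did not pass in a fit over probes (adjusted p = 0.632). The bounds therefore hold for the brightest probe with the main processing alone. Mcm10, which joins the helicase to polymerase alpha, rose by 2.29 and 1.78.

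Of the 7 genes that switch the helicase on, 5 rose in no.1 and 4 in no.2 (4 and 0 with the control arrays averaged), with unequal differences among the GINS subunits. Dbf4, the regulatory partner of the Cdc7 kinase, read -2.16 and -1.74 for control, 1.27 and 0.38 for no.1, with -0.26 and -0.36 for no.2, a rise of 2.77 in no.1 (SE 0.34, adjusted p = 0.00338) and 1.64 in no.2 (adjusted p = 0.0205). Its kinase Cdc7 rose by 2.54 and 1.68, and Cdc45, the helicase cofactor, by 1.92 and 1.46. Gins1, 1 of the 4 GINS subunits, rose by 2.75 (adjusted p = 0.00346) and 1.93 (adjusted p = 0.0141). Its partner Gins3 read 5.48 and 5.58 for control, 5.70 and 5.37 for no.1, with 5.24 and 5.09 for no.2. In no.1 it straddled control (0.0021, SE 0.21, adjusted p = 0.994), and in no.2 both arrays lay below control (-0.37, adjusted p = 0.22). Relative to the spike-ins Gins3 was called higher in no.2, by 0.92 (adjusted p = 0.0261), and with normexp background correction the difference there was 0.015. Gins4 rose by 0.80 in no.1 (adjusted p = 0.0272) and stood at 0.47 in no.2. Gins2 stood at 0.69 and 0.32 and did not pass, while its other probe passed in no.1 (0.97, adjusted p = 0.0269). The proteins of these 4 genes form a complex with 1 copy of each, and whether the genes differed from each other was not tested.

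Genes of polymerases alpha and epsilon rose, and the core genes of polymerase delta did not pass. Of the 8 polymerase and primase genes, 6 rose in no.1 and 5 in no.2, or 5 and 0 with the control arrays averaged. Whether the enzymes differed from each other was not tested. Pola1, the catalytic subunit of polymerase alpha, had the largest difference of all 51 genes in no.1, at -0.73 and -1.12 for control, 2.30 and 1.74 for no.1, with 0.99 and 0.41 for no.2. The groups stood fully apart, and Pola1 was 7.70-fold higher in no.1 (2.95 on the log2 scale with an SE of 0.31, adjusted p = 0.00269) and 3.09-fold higher in no.2 (1.63 on that scale, adjusted p = 0.0176). Its primase partner Prim1, the subunit that makes the RNA primer, rose by 2.55 and 1.63, Pola2 by 1.45 and 1.21, and Prim2 by 0.86 in no.1, with 0.57 in no.2 (adjusted p = 0.137). The Pola2 probe was well above background on 1 of 2 control arrays, and with normexp its difference turned to -0.12 in no.1 and -0.081 in no.2. Pole, the catalytic subunit of the leading-strand polymerase epsilon, rose by 2.14 (adjusted p = 0.00457) and 1.57 (adjusted p = 0.0176), and Pole2 by 2.46 and 1.62.

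Polymerase delta extends the lagging strand. Pold2, its second subunit, read 3.08 and 3.18 for control, 3.85 and 3.44 for no.1, with 3.94 and 3.17 for no.2, so that no.2 replicate 2 lay within the control values. Its log2 fold changes were 0.52 (adjusted p = 0.208) and 0.43 (adjusted p = 0.317). The catalytic Pold1 stood at 0.55 (adjusted p = 0.218) and 0.57 (adjusted p = 0.232). Of the accessory subunits, which were not among the 51 genes but in a second list of replication genes, Pold3 rose by 1.73 in no.1 and 1.29 in no.2. Pold4, the smallest subunit, went the other way, at 5.99 and 6.10 for control, 3.74 and 3.85 for no.1, with 4.33 and 4.16 for no.2. It fell by 2.25 on the log2 scale in no.1 (SE 0.19, adjusted p = 0.00161) and by 1.80 in no.2 (adjusted p = 0.00435). Pole3 and Pole4, the histone-fold subunits of polymerase epsilon, rose in no.1 by 1.05 and 0.86, and stood at 0.69 and 0.37 in no.2.

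**Figure D3:**
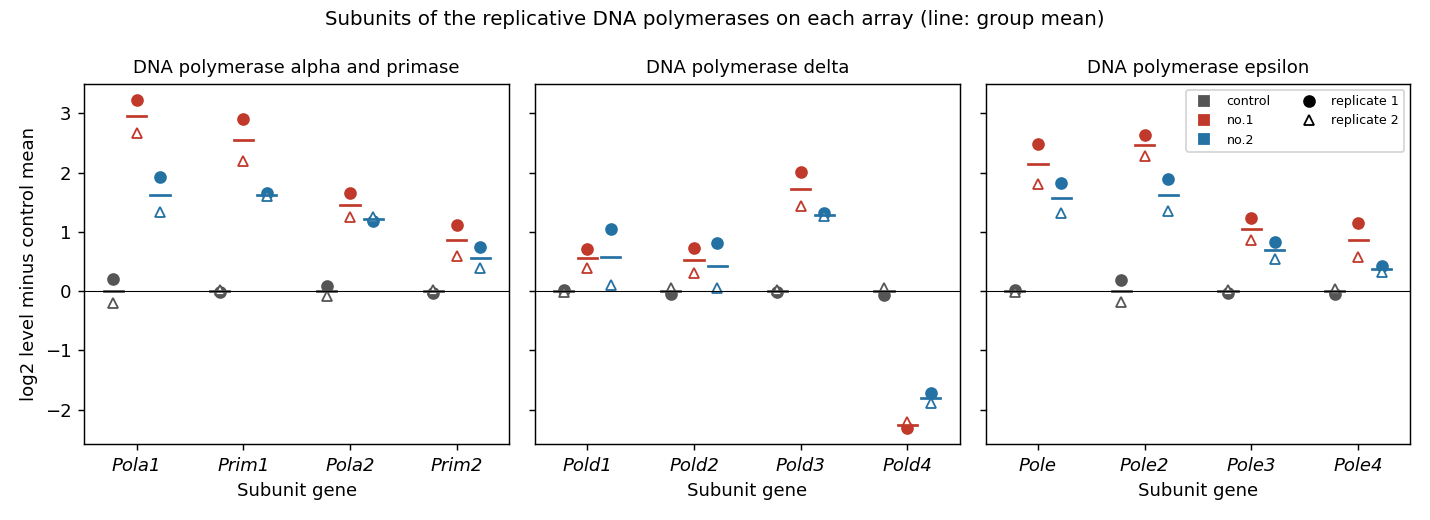
Log2 level minus the control mean on each array for the subunit genes of polymerase alpha with primase (left), delta (middle) and epsilon (right). Circles are replicate 1, triangles replicate 2, and lines the group means. Pold4 is the only subunit gene below control, at -2.25 in no.1 and -1.80 in no.2.

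The clamp rose together with 3 of the 5 clamp loader genes. Pcna, the sliding clamp itself, read 3.33 and 3.26 for control, 5.66 and 4.97 for no.1, with 4.55 and 4.56 for no.2, a rise of 2.02 (SE 0.27, adjusted p = 0.00391) and 1.26 (adjusted p = 0.0219) with no overlap. Rfc1, the large loader subunit, rose by 1.58 and 1.14, Rfc4 by 1.88 and 1.13, and Rfc5 by 1.62 and 1.16. Rfc2 was nearly level, at 3.88 and 3.96 for control, 4.40 and 4.23 for no.1, with 4.56 and 3.87 for no.2. Neither its 0.40 in no.1 (adjusted p = 0.264) nor its 0.30 for no.2 (adjusted p = 0.422) passed, and Rfc3 stood at 0.58 and 0.59 and did not pass. The other Rfc3 probe passed in both groups, at 0.81 (adjusted p = 0.0184) and 0.77 (adjusted p = 0.0347). With the control arrays averaged, 4 of these 6 genes rose in no.1 and 0 in no.2.

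Of the genes that handle single strands and join Okazaki fragments, the flap nuclease led. Fen1, which trims the fragments, read 3.46 and 3.63 for control, 5.75 and 5.44 for no.1, with 5.40 and 5.05 for no.2, a rise of 2.05 (SE 0.23, adjusted p = 0.0029) and 1.68 (adjusted p = 0.00799). The ligase gene Lig1 rose by 1.45 and 1.26. Of the single-strand binding complex RPA, Rpa3 rose by 1.39 and 0.90 and Rpa1 by 0.90 in no.1, with 0.54 in no.2 (adjusted p = 0.163). Rpa2 read 0.86 and 0.97 for control, 1.75 and 1.23 for no.1, with 1.39 and 1.17 for no.2. All 4 tamoxifen-treated arrays lay above control, but 0.57 (adjusted p = 0.0985) and 0.36 (adjusted p = 0.29) did not pass. In all, 4 of the 5 rose in no.1 and 3 in no.2, or 3 and 1 with the control arrays averaged.

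The 4 nucleotide synthesis genes rose by nearly the same amount in no.1, and with the brightest probe of each none passed in no.2. Rrm1, the large subunit of ribonucleotide reductase, read 2.80 and 2.85 for control, 4.85 and 4.0 for no.1, with 3.93 and 3.64 for no.2. It rose by 1.60 in no.1 (SE 0.31, adjusted p = 0.0102) and stood at 0.96 in no.2 (adjusted p = 0.0659). Tyms, thymidylate synthase, read 3.03 and 3.05 for control, 4.79 and 4.21 for no.1, with 4.29 and 3.66 for no.2, with 1.46 (adjusted p = 0.0122) and 0.94 (adjusted p = 0.0648). The small reductase subunit gene Rrm2 rose by 1.59 and thymidine kinase, Tk1, by 1.56 in no.1, with 0.70 and 1.18 in no.2. Every no.2 array lay above control for these 4 genes, although no adjusted p there was under 0.0648. The other Tk1 probe did pass in no.2 (1.37, adjusted p = 0.0415). With the control arrays averaged, 1 of the 4 rose in no.1 and 0 in no.2.

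Of the chromatin factors, Uhrf1, which reads hemimethylated DNA and brings in the maintenance methyltransferase, read 3.05 and 3.13 for control, 5.52 and 5.14 for no.1, with 5.23 and 4.59 for no.2. It rose by 2.24 (SE 0.28, adjusted p = 0.00355) and 1.82 (adjusted p = 0.0103), with all 4 arrays clear of control. Chaf1a, the large subunit of the histone chaperone CAF-1, read 2.39 and 2.38 for control, 3.70 and 3.27 for no.1, with 3.58 and 2.83 for no.2. It rose by 1.1 in no.1 (adjusted p = 0.0286) and stood at 0.82 in no.2 (adjusted p = 0.0894). Its partner Chaf1b showed nearly the same, with 1.12 in no.1 and 0.85 in no.2. With the control arrays averaged, 1 of the 3 rose in no.1 and 0 in no.2.

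A second list of 47 replication genes that are not among the 51 moved in the same direction for the most part. Like the 51 genes, this list was chosen with earlier results of these data known. Of 46 tested, 31 rose and 3 fell in no.1 (median 1.54), and 21 rose and 1 fell in no.2 (median 1.00). Over all genes 21.4% were called higher and 26.4% lower in no.1, with 12.1% and 16.2% in no.2. The shares over all genes with the control arrays averaged are given above. With the control arrays averaged, 25 rose and 1 fell in no.1 and 5 rose and 1 fell in no.2. Lowest in p among those that rose in no.1 were Top2a, the topoisomerase that untangles replicated DNA (3.14, SE 0.24), Dscc1, a subunit of an alternative clamp loader (2.53, SE 0.19), Atad5, which unloads the clamp (2.49, SE 0.26), and Dtl, the adaptor for Cdt1 destruction (2.89, SE 0.32). Besides Pold4, those that fell were Mms22l (-0.90, adjusted p = 0.0177), a fork repair factor, and Tk2, the mitochondrial thymidine kinase (-0.90, adjusted p = 0.0199). The direction of Mms22l and Tk2 depends on the processing. Relative to the spike-ins Mms22l was 1.04 and Tk2 1.04 above control, and with all its probes averaged Mms22l rose by 1.19 (adjusted p = 0.00705). Pold4 stayed on the lower side relative to the spike-ins, but that scaling moves all genes up alike, so its fall is much smaller there. The next on the lower side, Lrwd1, an ORC-binding protein, stood at -0.45 and did not pass (adjusted p = 0.174).

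**Figure D4:**
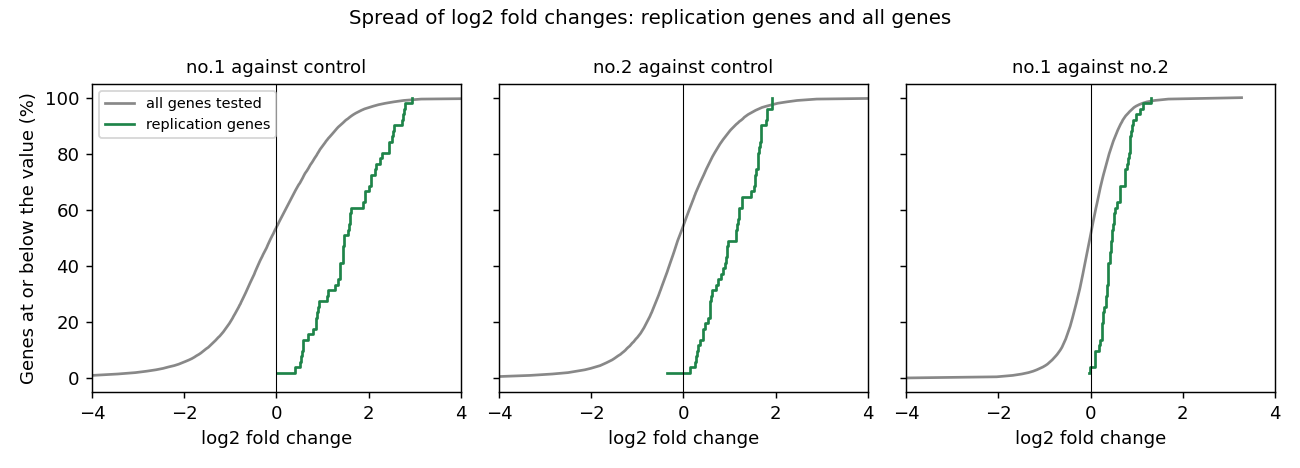
Share of genes (percent) at or below each log2 fold change, for the 51 replication genes (green) and all 23060 genes tested (grey), in no.1 against control, no.2 against control and no.1 against no.2. The medians of the replication genes were 1.46, 1.13 and 0.46, against -0.12, -0.10 and -0.011 over all genes.

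The comparison named in the series' design sets no.1, with tamoxifen in the medium, against no.2, from which it was absent. No replication gene passed in it. Limma called 0% of all genes higher and 0% lower, also when fitted without the control arrays, and the smallest adjusted p of a replication gene was 0.282. All the same, no.1 had the higher mean for 49 of the 51 genes, and the median difference was 0.46. The share with the higher mean in no.1 was 49.0% over all genes, with a median of -0.011. At an unadjusted p under 0.05, 15 of 51 were higher, against 8.24% of all genes. Both no.1 arrays lay above both no.2 arrays for 28 of 51, against 22.5% of all genes.

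Pola1 had the largest difference between no.1 and no.2, at 1.32 (SE 0.31), followed by Dbf4 at 1.14 (SE 0.34) and Orc2 at 1.08 (SE 0.38), each with an adjusted p of 0.282. For Orc2, the no.1 arrays at 1.19 and 0.03 both lay above the no.2 arrays at -0.45 and -0.50, and those lay close to control at -0.78 and -0.68. Pold1 (-0.024) and Rfc3 (-0.0063) were on the lower side. The median difference rested in part on the no.1 replicate 1 array. Without it the median was 0.23, with 46 of 51 above 0. Leaving out no.2 replicate 2 gave 0.29, with 40 of 51 above 0. The other arrays worked the opposite way, with 0.68 when no.1 replicate 2 was left out and 0.75 when no.2 replicate 1 was.

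Within the tamoxifen-treated groups the replicates differed by a median about as large as that between no.1 and no.2. No.1 replicate 1 exceeded no.1 replicate 2 for all 51 genes, by a median of 0.47, where the median over all genes was 0.020. No.2 replicate 1 exceeded no.2 replicate 2 for 45 of 51, by a median of 0.50, where it was 0.087 over all genes. In control, replicate 1 was the higher for 14 of 51, with a median difference of -0.051. Set array against array, no.1 replicate 1 exceeded no.2 replicate 1 for 42 genes (median 0.48) and no.1 replicate 2 exceeded no.2 replicate 2 for 50 (median 0.50). No.1 replicate 2 exceeded no.2 replicate 1 for 28 of 51, with a median difference of 0.055. Replicate number and the hours in the file names coincide in these groups and cannot be told apart.

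More than 1 probe was on the array for 23 of the 51 genes, and for 22 of them more than 1 probe entered the filter. Against control their signs disagreed in no.1 for Orc4, whose 3 probes stood between -0.18 and 0.89. In no.2 they disagreed for Orc4 (-0.94 to 0.13), Mcm9 (-0.51 to 0.75), Cdc7 (-0.18 to 1.68) and Orc2 (-0.21 to 0.26). For Orc4 the lowest of these passed in a fit over 29681 probes (adjusted p = 0.0249), so its direction in no.2 depends on the probe. Probes of a gene fell on different sides of the threshold for 8 genes in no.1 (Cdc6, Cdc7, Gins2, Gins4, Mcm9, Orc2, Orc4 and Rfc3) and for 7 in no.2 (Cdc6, Cdc7, Mcm7, Orc3, Orc4, Rfc3 and Tk1). The brightest probe passed for 5 of the 8 in no.1 and for 2 of the 7 in no.2. The probes of Gmnn (1.51 and 1.52 in no.2), Gins1 (1.93 and 1.94) and Tyms (0.94 and 0.95) nearly coincided. Whether probes of a gene read different transcripts was not tested.

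Since most of these genes moved together, their promoters were searched for shared letters. RefSeq promoters (GRCm38.p6, 250 bases before to 50 after the start) were at hand for 43 of the 51 genes, with 53 promoters. They were searched on both strands for the E2F letters TTTCCCGC, TTTCGCGC, TTTGCCGC and TTTGGCGC, which can overlap each other. At least 1 of them was in 16 of 53 promoters (30.2%), of 16 genes, against 2.26% of all 32851 promoters and 3.73% of 14217 promoters of genes tested here. The letters CCAAT, bound by NF-Y, were in 56.6% of the 53, against 37.4% of all promoters and 37.7% of those of genes tested. TTTGAA, the core of the CHR element of mitotic genes, was in 15.1%, which lies between 12.7% for promoters of genes tested and 17.9% for all. TATAAA was in 5.66%, against 8.37% and 13.6%. The promoters were not matched for base composition: the median GC content was 62.3% for the replication genes, 60.0% for the genes tested and 52.7% for all. A match of letters is a description, not a binding site.

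Genes with and without the E2F letters had overlapping differences. The 16 genes that held the letters had a median log2 fold change of 1.46 in no.1 and 1.24 in no.2, and the 27 without them 1.56 and 0.96, as a description with no test. Gins3, which stood level in no.1, and Pold1, which did not pass, held them as well as Orc1 and Pola1. The upstream 250 bases are shown for the 4 genes with such letters before the start and the lowest p in no.1, with the E2F letters in capitals, 5′ to 3′ on the gene's strand. In Mcm6 2 of the 3 matches overlap and read as 1 run of capitals.
Mcm6, chr1:128359706-128359955, minus strand: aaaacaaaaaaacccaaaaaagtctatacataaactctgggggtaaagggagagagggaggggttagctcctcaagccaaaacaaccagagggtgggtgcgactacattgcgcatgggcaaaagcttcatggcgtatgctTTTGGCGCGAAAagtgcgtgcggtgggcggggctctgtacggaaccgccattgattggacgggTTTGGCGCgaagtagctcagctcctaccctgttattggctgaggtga
Pola1, chrX:93632156-93632405, minus strand: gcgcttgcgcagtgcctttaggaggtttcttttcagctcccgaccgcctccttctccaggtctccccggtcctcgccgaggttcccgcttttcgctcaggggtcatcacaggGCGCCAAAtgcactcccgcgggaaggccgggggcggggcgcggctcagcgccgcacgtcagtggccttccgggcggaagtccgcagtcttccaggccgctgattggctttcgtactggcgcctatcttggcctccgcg
Orc1, chr4:108579204-108579453, plus strand: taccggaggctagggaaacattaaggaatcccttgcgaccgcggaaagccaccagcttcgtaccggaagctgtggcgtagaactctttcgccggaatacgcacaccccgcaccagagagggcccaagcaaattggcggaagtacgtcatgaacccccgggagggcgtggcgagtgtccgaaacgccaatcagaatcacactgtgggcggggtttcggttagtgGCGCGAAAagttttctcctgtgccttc
Uhrf1, chr17:56304063-56304312, plus strand: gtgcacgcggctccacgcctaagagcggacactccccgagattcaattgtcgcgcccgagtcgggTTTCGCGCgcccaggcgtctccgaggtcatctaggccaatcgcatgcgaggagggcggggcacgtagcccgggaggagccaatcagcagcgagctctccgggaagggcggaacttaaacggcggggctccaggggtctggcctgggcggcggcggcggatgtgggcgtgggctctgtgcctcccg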

How the data were processed

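Total RNA of 6 samples was read on 1-colour Agilent arrays. Per the file headers, the deposited intensity values come from Agilent Feature Extraction 12.1.1.1 (9.5.1.1 in the submitters' processing notes), background-subtracted and detrended but not normalized between arrays, on a design of build mm9. The value table deposited by the authors holds linear intensity with equal quartiles on all arrays, as quantile normalization gives, and was an alternative.

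Processed signals were divided by their 75th percentile over 56605 probes on each array, then put on the log2 scale. Spots of a probe were averaged without outlier flags. Probe accessions gave a symbol for 32994 probes (58.3%) through RefSeq (GRCm38.p6). The other 23611 probes were kept under their accession, which counted as a gene, so shares over all genes include such entries. Each gene took its probe of highest mean, and entered the test if the software marked that probe as well above background in 1 or more groups, on each of their arrays. No spot was saturated. Tests used limma 3.58.1 (lmFit, eBayes) in R 4.3.3 with 1 mean per group over 6 arrays and Benjamini-Hochberg adjustment, and the script was checked on simulated data. Values for every array are given, within each role, for the genes with the largest and smallest difference in no.1, and for the second list the 4 lowest p in each direction. The genes and lists were chosen with earlier results of these data known. The labels tie no replicate number to a shared culture or day, so no block was used. Deviations of same-numbered arrays from their group means correlated at -0.049 (control and no.1), -0.0028 (control and no.2) and 0.20 (no.1 and no.2, whose numbers coincide with the hours in the file names). The planned normexp correction used the median spot signal with an offset of 50, as the files held no mean signal.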

Additional observations from a re-analysis of the deposited data

How the results depend on the processing

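Across 17 alternatives, the replication genes stayed on the higher side as a group in all 3 comparisons. Of the 41 calls in no.1 against control, 26 held in every alternative that tested them, and of the 27 in no.2, 2 did. The number called higher in no.2 was 51 relative to the spike-ins and 2 with the control arrays averaged. Leaving out 1 array leaves a group with 1 array, so the differences of the replication genes there are given as medians below. With normexp background correction 1 gene, Orc5, was called lower in no.1 (-0.38, adjusted p = 0.0051). Between no.1 and no.2, limma called 520 of all genes higher and 7776 lower without the filter on dim probes, and 2 and 115 without no.1 replicate 2, with 0 replication genes among them.

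The median of the replication genes was 1.89 in no.1 and 1.45 in no.2 with median scaling, and 3.40, 2.42 and 1.11 (no.1 against no.2) relative to the spike-ins, where the median over all genes moved as well. Leaving out 1 array gave medians of 1.33 to 1.78 in no.1, 0.90 to 1.26 in no.2 and 0.23 to 0.75 between no.1 and no.2. With the replicate block, 42 genes were called higher in no.1, 28 in no.2 and 0 between no.1 and no.2. The labels do not say that the numbers pair samples, and in no.1 and no.2 they coincide with the hours in the file names.

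Against control, directions turned in 5 results of no.1 and 8 of no.2, and the cause was not tested. In no.1 they were Gins3 without control replicate 1 (-0.049) or no.1 replicate 1 (-0.16, the lowest over arrays left out, against 0.16 without no.1 replicate 2 as the highest), and with normexp Mcm9 (-0.17), Orc5 (-0.38) and Pola2 (-0.12). In no.2 they were Gins3 relative to the spike-ins (0.92) and with normexp (0.015), Mcm9 (-0.13), Orc5 (-0.16) and Pola2 (-0.081) with normexp, Orc4 with all probes averaged (-0.38), and Gins2 and Rfc2 without no.2 replicate 1 (-0.043 each, against 0.68 and 0.64 without no.2 replicate 2). Between no.1 and no.2, Pold1 turned to 0.089 with median scaling, 0.63 relative to the spike-ins, 0.22 with normexp, 0.13 without no.1 replicate 2 and 0.45 without no.2 replicate 1, against -0.50 without no.2 replicate 2. Rfc3 turned to 0.11, 0.65, 0.24, 0.15 and 0.18 under the same 5, and to 0.017 with all probes averaged, against -0.20 without no.2 replicate 2. In the second list, relative to the spike-ins, Lrwd1 turned to 1.49 and 0.89, Mms22l to 1.04 and 0.82 and Tk2 to 1.04 and 0.89 in no.1 and no.2. With normexp Lrwd1 was 0.17 in no.1. Mms22l was 1.19 and 0.96 with all probes averaged and 0.0016 in no.2 with quantile normalization.

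Dim probes limit what can be said of Mcm9, Orc5 and Pola2. Other probes were dim in control as well, with processed signals of 6.91 and 8.91 for Mcm8 and 7.64 and 10.1 for Dbf4. For Pole2 they were 8.77 and 6.70, and for Cdc45 9.12 and 9.07. These were well above background and their calls in no.1 held in every alternative, but the sizes of their differences rest on dim control signals.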
